A study of Mus musculus with 6 samples.

Results

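Globin and red cell transcripts were followed in whole liver RNA from insulin-resistant (IR) mice as a measure of blood in the tissue. The group held 6 of the 54532 genes in the count table: the alpha-globin genes Hba-a1 and Hba-a2, the beta-globin genes Hbb-bs and Hbb-bt, the erythroid haem enzyme gene Alas2, and Slc4a1, which encodes the red cell anion exchanger band 3. Members were chosen by gene name, with their levels in these libraries and in this contrast already known, so their values are given as a description without a test. All 6 mice were male C57BL/6J animals placed on a high-fat diet at 8 weeks of age for 6 weeks and then fasted for 16 h. Of these, 3 received insulin at 0.75 units per kg (IR insulin) and 3 received the bovine serum albumin vehicle (IR vehicle), and livers were taken after 6 h. No mice on a control diet were compared here, so every value belongs to the insulin-resistant state.

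Haemoglobin is assembled from alpha and beta chains, each holding a haem group, and adult mice make both chains from a pair of near-identical genes. Developing red cells expel the nucleus, and reticulocytes, the youngest red cells in blood, carry globin mRNA into the circulation before it decays. Alas2 encodes the erythroid form of 5-aminolevulinate synthase, the first enzyme of haem synthesis, while other tissues, the liver among them, use Alas1. Adult mouse liver does not normally make red cells, so globin mRNA in it is usually taken to mark blood held in the vessels.

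The near-identity of the globin pairs limits how the counts can be read. In GENCODE release M21 (build 38, mm10), Hba-a1 lies at chr11:32283511-32284465 and Hba-a2 at chr11:32296489-32297298, both on the plus strand with 3 exons. Their coding sequences of 426 bases, counted from 1 at the start codon and without the stop codon, differ at 1 position, C381T. The stretches around it are shown with the differing base in capitals because only reads that cross it can tell the coding parts of the copies apart.
Hba-a1: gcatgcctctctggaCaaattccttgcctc
Hba-a2: gcatgcctctctggaTaaattccttgcctc
Of the 100-base windows of the annotated transcripts, 56.5% of those of Hba-a1 and 74.5% of those of Hba-a2 were shared with the other copy.

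Hbb-bs, at chr7:103826534-103828096, and Hbb-bt, at chr7:103812524-103813996, both lie on the minus strand with 3 exons. The coding sequences of 441 bases also differ at 1 position, C417T, again in capitals.
Hbb-bs: ggtggctggagtggcCgctgccctggctca
Hbb-bt: ggtggctggagtggcTgctgccctggctca
Over 625 aligned bases, however, the whole transcripts differ at 43, and 62.6% of the 100-base windows of Hbb-bs and 54.8% of those of Hbb-bt were shared. How the authors' counting treated reads that match both copies is not given in the sources used here, so the split within a pair is uncertain, and sums over each pair are given beside the single genes.

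The upstream sequences of the alpha copies are the same, although their counts differed in every library. In the RefSeq promoter sequences of build 38, the Hba-a1 and Hba-a2 promoters matched over 297 of 297 aligned bases, against 78.2% identity over 289 bases for the beta pair. The 160 bases at chr11:32296329-32296488 (plus strand) upstream of Hba-a2 are shown with the CCAAT and TATAA motifs in capitals.
Hba-a2 upstream: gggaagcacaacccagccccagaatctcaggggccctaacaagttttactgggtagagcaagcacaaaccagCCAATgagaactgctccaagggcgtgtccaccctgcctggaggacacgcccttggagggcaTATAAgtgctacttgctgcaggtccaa
Hbb-bs carries CCAAT next to CCACACCC, a match to CCNCNCCC, at chr7:103827997-103828026 on the minus strand. GATA motifs, the class bound by the erythroid factor GATA1, are also shown in capitals, as TGATAA upstream of Hba-a2 (chr11:32296296-32296325) and as AGATAA upstream of Hbb-bs (chr7:103828119-103828148, minus strand). Alas2 (chrX:150547321-150547350) holds AGATAA on the opposite strand, printed as TTATCT.
Hbb-bs CCAAT: tagagCCACACCCtggtaagggCCAATctg
Hba-a2 GATA: tccgggcaacTGATAAggattccctgcacc
Hbb-bs GATA: ttctctgcacAGATAAggacaaacattatt
Alas2 GATA: actttgctttTTATCTttagcagaggcctg
These motifs are common. Searched on both strands, TGATAA was present in 8.91%, AGATAA in 11.2%, CCAAT in 37.4%, TATAA in 24.8% and CCNCNCCC in 49.7% of the 32544 promoters of 300 bases in that table. Promoters were found for 5 of the 6 members.

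The libraries held 18449986 to 21827619 counts. Levels below are CPM, counts scaled by TMM to a common library size, and log2 fold changes are IR insulin relative to IR vehicle. IR vehicle replicate 2 stood apart from the other 5 libraries. It had 16470 genes with a count, against 18389 to 18874, and its levels tracked transcript GC content: genes with 38 to 40% GC deviated from the median of the other libraries by a median of 0.96 (log2 scale), and genes with 58 to 60% GC by -1.35. Over 13377 genes tested with edgeR, 0% had an adjusted p under 0.05, and DESeq2 also called 0. At an unadjusted p under 0.05, edgeR found 383 genes and DESeq2 507. The study's own criteria (a log2 fold change of 0.35 or more in either direction and an unadjusted p under 0.05) were met by 1.86% of genes in the lower direction and 1.0% in the higher (35.0% of calls higher, or 73.3% when libraries were scaled by their totals alone). The liver label fitted the markers: Alb, encoding albumin, ran from 38255 to 138554 CPM and Apoa1, encoding a lipoprotein protein, from 3901 to 12978 CPM.

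Globin transcripts made up a small share of each library, and that share was highest in IR vehicle replicate 2. The 4 globin genes took 0.0536%, 0.121% and 0.0352% of the counts in IR vehicle replicates 1, 2 and 3, and 0.0282%, 0.0429% and 0.0266% in IR insulin replicates 1, 2 and 3. The exact 95% binomial interval was widest for the highest share, at 0.119 to 0.123%, and such intervals cover counting error only. Summed globin levels were 523, 1460.3 and 363 CPM in IR vehicle, against 269.7, 405 and 243 CPM in IR insulin. Thus the groups overlapped, since IR insulin replicate 2 lay above IR vehicle replicate 3, and the spread between libraries was 6.00-fold.

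The group means differed, but 1 library carried much of the difference. Summed globin expression was 782 ± 593 CPM (SD, n = 3) with vehicle and 306 ± 86.8 CPM (SD, n = 3) with insulin, a ratio of 0.391. Without IR vehicle replicate 2 the vehicle mean was 443 CPM (n = 2) and the ratio 0.691. A lower number of red cells and less globin mRNA per red cell cannot be told apart in whole tissue. How far the state of the IR vehicle replicate 2 library, or the assignment of reads, entered this difference was not tested.

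**Figure D1:**
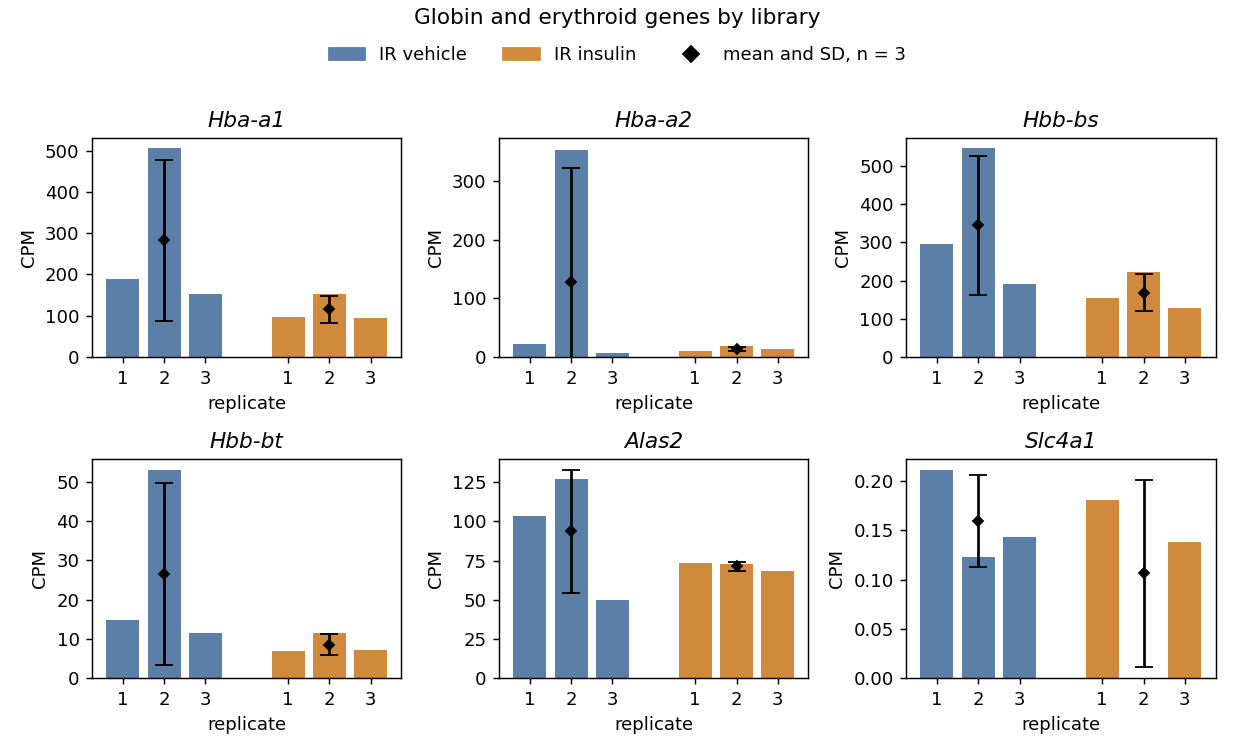
Level of each of the 6 members (y axis, CPM on a linear scale from 0, different in each panel) in replicates 1 to 3 of IR vehicle (blue bars) and IR insulin (orange bars), with the group mean and SD (n = 3, black diamond and bar, clipped at 0). IR vehicle replicate 2 was the highest library for the 4 globins and, with TMM but not with library totals, for Alas2, most of all for Hba-a2 at 353 CPM, whereas Slc4a1 reached at most 0.211 CPM.

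Among the alpha-globins, Hba-a1 was measured at 188, 507 and 154 CPM in the vehicle libraries and at 97.5, 154 and 94.1 CPM in the insulin libraries. The lowest vehicle value, 153.72 CPM, was only just above the highest insulin value, 153.69 CPM, so the groups touched without overlapping, and with scaling by library totals they overlapped (149 and 163 CPM). The log2 fold change was -1.30 ± 0.48 (SE), and -0.57 without IR vehicle replicate 2.

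Hba-a2, the second alpha-globin copy, varied most of all members. It was at 22.7, 353 and 6.58 CPM in IR vehicle, against at 10.7, 18.1 and 12.7 CPM in IR insulin. IR vehicle replicate 2 was 15.6-fold above the next library and 53.7-fold above the lowest, which was also a vehicle library. The insulin libraries fell between the other 2 vehicle libraries. Its log2 fold change of -3.20 ± 1.26 (SE) went to -0.07 when IR vehicle replicate 2 was left out.

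Of the beta-globins, Hbb-bs, the major beta chain gene, was at 297, 547 and 191 CPM in IR vehicle, against 155, 222 and 129 CPM in IR insulin. Its groups overlapped in IR insulin replicate 2 and IR vehicle replicate 3, and the log2 fold change was -1.03 ± 0.41 (SE), or -0.53 without IR vehicle replicate 2. Hbb-bt, the lesser beta chain gene, was at 14.9, 53.1 and 11.6 CPM in IR vehicle, against at 6.89, 11.6 and 7.20 CPM in IR insulin. IR vehicle replicate 3 and IR insulin replicate 2 were level. The log2 fold change was -1.63 ± 0.58 (SE), and -0.62 without IR vehicle replicate 2.

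By these values 4 of the 5 tested members passed the study's criteria in the lower direction, beside 1.86% of all genes. Without IR vehicle replicate 2, 0 of the members did so, beside 283 of 13760 genes tested. The groups did not overlap for 1 of the 5, against 12.3% of all genes. The median log2 fold change of the 4 globins was -1.46 (-0.55 without that library), while the median over all genes was -0.02. Because the members were picked with this contrast in view, these counts describe the libraries and carry no test.

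**Figure D2:**
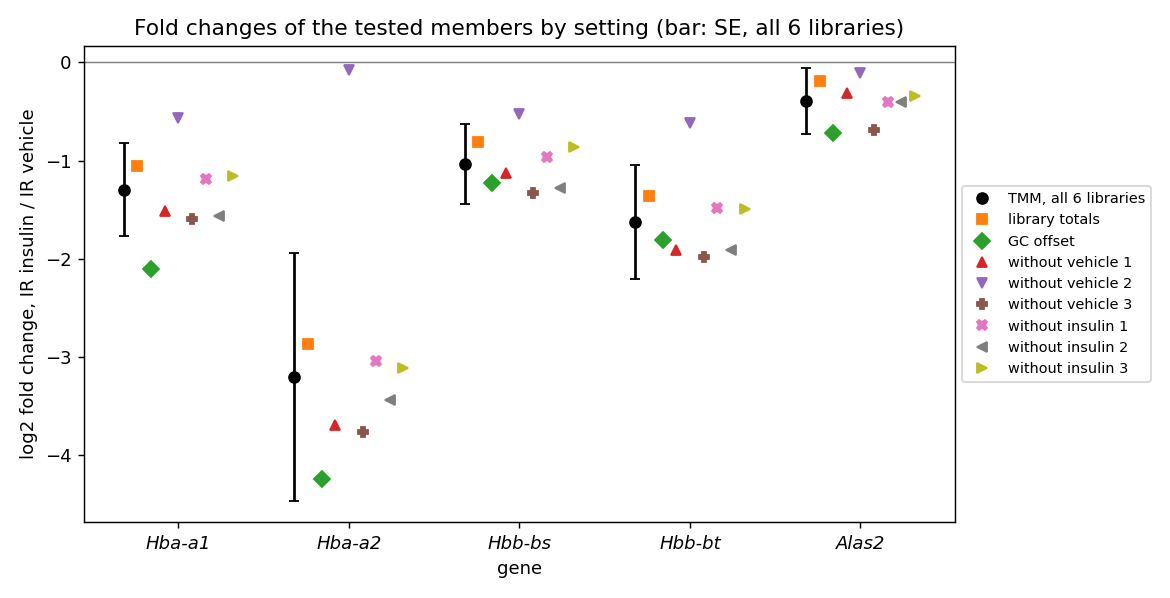
Log2 fold change of IR insulin over IR vehicle (y axis) for the 5 tested members (x axis) with all 6 libraries (black, bar ± SE) and under other settings (coloured symbols, no error shown). Every symbol drawn lies below 0, and leaving out IR vehicle replicate 2 (purple triangles) brought each gene nearest to 0, with Hba-a2 at -0.07.

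The ratio of alpha- to beta-globin counts separated IR vehicle replicate 2 from the rest. Summed over each pair, the ratio was 0.677, 1.43 and 0.791 in the vehicle libraries and 0.670, 0.736 and 0.783 in the insulin libraries. The exact 95% binomial interval in IR vehicle replicate 2, 1.40 to 1.47, lay far above the other 5, of which the highest upper bound was 0.828. Without that library the group means were 0.734 (n = 2) and 0.730 ± 0.0566 (SD, n = 3). A sum over the pair does not depend on how reads were divided between the copies, only on how many were kept. Between the leading copies alone, the ratio of Hba-a1 to Hbb-bs was 0.926 in IR vehicle replicate 2 and 0.631 to 0.805 elsewhere.

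Within the alpha pair, the share of counts assigned to Hba-a2 also set that library apart. It was 10.8%, 41.1% and 4.11% with vehicle and 9.90%, 10.5% and 11.9% with insulin. IR vehicle replicate 3 was low as well, with an interval of 3.46 to 4.83%, whereas 4 libraries, all 3 insulin libraries among them, lay between 9.90 and 11.9%. In the beta pair the Hbb-bt share was 4.77%, 8.84% and 5.72% with vehicle and 4.27%, 4.97% and 5.27% with insulin, so IR vehicle replicate 2 was again the highest. Summing each pair before the fit gave log2 fold changes of -1.67 ± 0.63 (SE) for the alpha pair and -1.07 ± 0.42 (SE) for the beta pair.

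**Figure D3:**
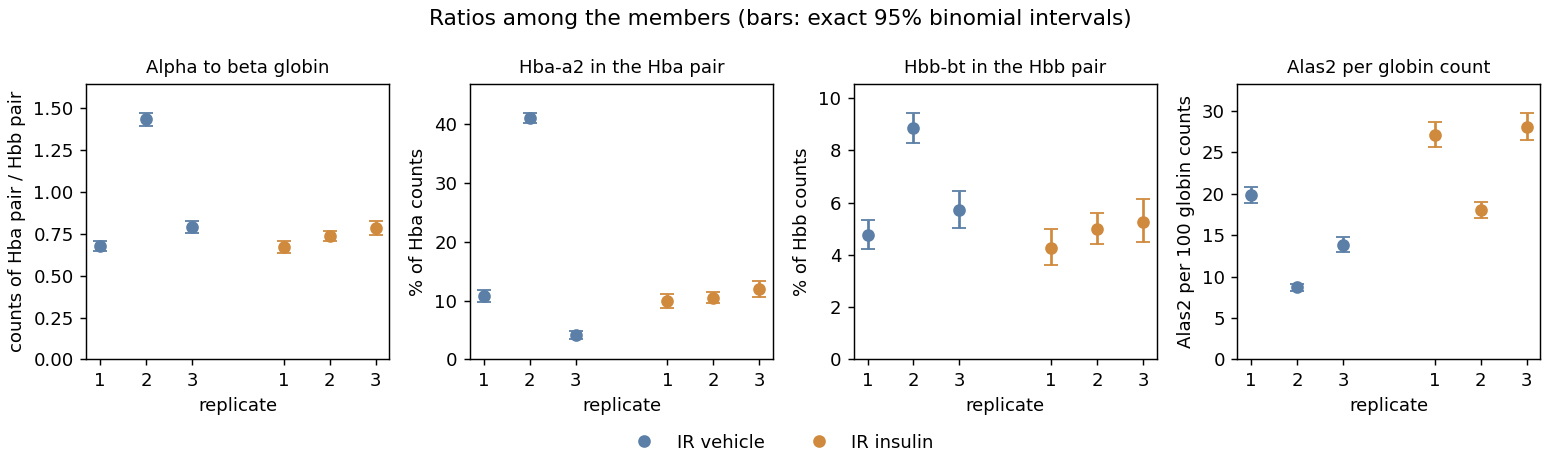
Ratios among the members in replicates 1 to 3 (x axis) of IR vehicle (blue) and IR insulin (orange): alpha to beta globin counts, Hba-a2 as a percent of Hba counts, Hbb-bt as a percent of Hbb counts, and Alas2 counts per 100 globin counts, with exact 95% binomial intervals. IR vehicle replicate 2 is highest in the first 3 panels (1.43, 41.1% and 8.84%) and lowest in the last (8.70).

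Across libraries, the 4 globins did not keep the same proportions equally well. The SD over 6 libraries of log2 of a gene's CPM relative to the summed globins was 0.10 for Hba-a1, 0.17 for Hbb-bt, 0.23 for Hbb-bs and 1.22 for Hba-a2. Without IR vehicle replicate 2 it was 0.10, 0.12, 0.06 and 0.60 in the same order. A low SD is partly given by construction, since Hba-a1 and Hbb-bs make up most of the sum. Per kilobase of the longest annotated transcript, Hbb-bs ran from 206 to 871 CPM per kb (median 329), Hba-a1 from 135 to 725 (median 219.9), Hba-a2 from 11.9 to 637 (median 27.8) and Hbb-bt from 9.80 to 75.5 (median 16.5). Hbb-bs was above Hba-a1 in each of the 6 libraries, but the ranges of these neighbours overlapped, as did those of Hba-a2 and Hbb-bt, whereas Hba-a1 stayed above Hbb-bt throughout.

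Alas2, which lies at chrX:150547375-150570638 on the plus strand with 11 exons, did not follow the globins closely. Its level was 104, 127 and 50.1 CPM in IR vehicle, against 73.2, 73.1 and 68.3 CPM in IR insulin. The insulin libraries were tightly grouped and lay within the range of the vehicle libraries. With scaling by library totals, IR vehicle replicate 1 rather than 2 was highest, at 106 against 105 CPM. The log2 fold change was -0.39 ± 0.34 (SE), and -0.10 without IR vehicle replicate 2. Relative to 100 globin counts, there were 19.9, 8.70 and 13.8 Alas2 counts with vehicle and 27.1, 18.04 and 28.1 with insulin. Globins varied 6.00-fold between libraries, whereas Alas2 varied 2.54-fold, and per kilobase it was at 24.6 to 62.4 CPM per kb (median 35.9). The SD of its log2 ratio to the summed globins was 0.64, or 0.43 without IR vehicle replicate 2.

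The annotation places Alas2 wholly within Apex2, which encodes a DNA repair nuclease on the opposite strand, and 13.8% of the 50-base windows of the Alas2 transcript are also in an annotated transcript of Apex2. Whether the counting used strand is not given in the sources used here, so reads of the overlapping part cannot be told apart. Apex2 was at 11.1, 6.20 and 9.82 CPM in IR vehicle, against at 12.5, 8.36 and 8.67 CPM in IR insulin. It therefore took fewer counts than Alas2 in all 6 libraries and was lowest, not highest, in IR vehicle replicate 2.

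Slc4a1, at chr11:102348824-102366203 on the minus strand with 20 exons, had 4, 2 and 3 counts in the vehicle libraries and 4, 0 and 3 in the insulin libraries. It did not pass the filter on low counts and was not tested. A count of 0 allows up to 3 counts, or 0.130 CPM, in IR insulin replicate 2, so no difference between groups was detectable at this depth. Slc4a1 did not rise in IR vehicle replicate 2, where the globins were highest.

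The deviations of IR vehicle replicate 2 were set beside those of genes with like GC content, because low-GC genes were raised and high-GC genes lowered in that library. Hba-a1 (57.2% GC) was 1.72 above the median of the other 5 libraries on the log2 scale, whereas 997 genes within 1 percentage point of its GC content had a median deviation of -1.04. Hba-a2 (56.9%) deviated by 4.79 against -0.98. For Hbb-bs (51.3%) and Hbb-bt (50.8%) the deviations were 1.52 and 2.19 against -0.16 and -0.10, and for Alas2 (53.3%) 0.80 against -0.49. Each of the 5 tested members was thus above the typical gene of its GC content. With a GC offset in the model, the log2 fold changes became -2.11 for Hba-a1, -4.25 for Hba-a2, -1.23 for Hbb-bs, -1.81 for Hbb-bt and -0.71 for Alas2. Why this library stood apart was not tested.

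**Figure D4:**
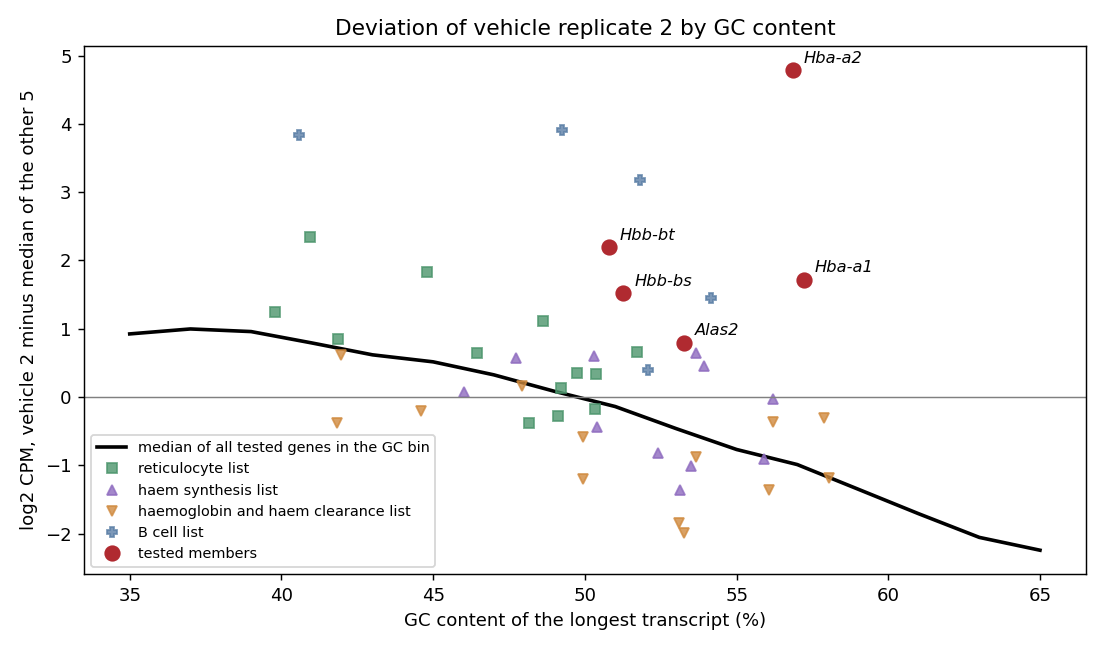
Log2 CPM in IR vehicle replicate 2 minus the median of the other 5 libraries (y axis) against GC content of the longest transcript (x axis, percent) for the tested members (red) and genes of 4 lists, with the median of all tested genes per GC bin of 2 percentage points (black line). The line falls as GC content rises, while the red points lie above it, from 0.80 for Alas2 to 4.79 for Hba-a2.

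Other transcripts of the red cell lineage were mostly too scarce to follow the globins. Of the 7 other globin genes in the table, 5 (the embryonic Hba-x, Hbb-y and Hbb-bh1, and Hbb-bh0 and Hbb-bh2) had 0 counts in all 6 libraries, and Hbq1a and Hbq1b had at most 1 and 3. Of 17 red cell membrane genes, 13 were not tested for lack of counts. Rhag, which encodes the Rh-associated glycoprotein, had 0 counts throughout. Gypc, encoding the more widely used glycophorin C, had 29 to 176. Of the 4 membrane genes tested, 0 had an adjusted p under 0.05 and 0 passed the study's criteria. The smallest p values were those of Tspan33 (log2 fold change 0.33 ± 0.37 SE, adjusted p = 0.855), Xk (-0.36 ± 0.47, adjusted p = 0.865) and Epb41 (0.17 ± 0.25, adjusted p = 0.873). Epb41, the protein 4.1 gene, is also used outside red cells and was lowest in IR vehicle replicate 2, at 116 CPM against 166 to 194 CPM.

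Erythroid transcription factors gave a similar picture. Gata1, the master regulator of the lineage, had at most 1 count in any library. Of 10 genes in the list, which includes the erythropoietin receptor Epor, 5 were tested, and 0 were called by adjusted p or by the study's criteria (1 higher, 4 lower, median -0.27). Klf1, an activator of the adult beta-globin gene, was at 1.85, 0.80 and 6.30 CPM in IR vehicle, against 1.85, 2.25 and 1.89 CPM in IR insulin, so that IR vehicle replicate 2 was its lowest library. Its deviation there, -1.22, was nevertheless above the median of -1.71 for genes with 60 to 62% GC. The log2 fold changes were -0.59 ± 0.67 (SE) for Klf1 (adjusted p = 0.855), -0.57 ± 0.55 for Epor (adjusted p = 0.853) and 0.39 ± 0.52 for the GATA1 partner Zfpm1 (adjusted p = 0.868).

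Most of the tested genes in the reticulocyte list were highest in the same library as the globins. Of 18 listed genes, 16 were in the table and 13 were tested, of which 9 were highest in IR vehicle replicate 2, beside 35.8% of all genes tested. At an adjusted p under 0.05, 0 genes were called. The study's criteria were passed by 2, both lower with insulin, beside 1.86% of all genes in that direction. Without IR vehicle replicate 2, 0 passed, beside 283 of 13760 genes tested in the lower direction. Over all genes tested, low GC content moved with a high level in IR vehicle replicate 2. The part of GC content in the levels of the reticulocyte genes was not tested. Car1, encoding red cell carbonic anhydrase (44.8% GC), was one of those that passed, with a log2 fold change of -1.29 ± 0.50 (SE, adjusted p = 0.852). It was at 4.23, 15.04 and 6.87 CPM in IR vehicle, against 4.64, 3.59 and 2.40 CPM in IR insulin, so the groups overlapped. Bnip3l, which drives removal of mitochondria from reticulocytes, was next at -0.56 ± 0.29 (adjusted p = 0.852). The mitochondrial iron carrier gene Slc25a37 had 168 to 426 counts and the transferrin receptor gene Tfrc 244 to 746. Over the 13 genes the median was -0.30, or -0.12 without IR vehicle replicate 2, beside medians over all genes of -0.02 and 0.01.

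The remaining enzymes and carriers of haem synthesis, which the liver uses for its own haem, did not move in one direction. All 11 were tested, 0 were called by adjusted p or by the study's criteria, and 5 were higher and 6 lower, with a median of -0.03. Of the 11, 3 were highest in IR vehicle replicate 2, beside 35.8% of all genes. Alas1, the housekeeping counterpart of Alas2, was at 1014.8, 431 and 721 CPM in IR vehicle, against 1317, 869.9 and 385 CPM in IR insulin, and its log2 fold change was 0.25 ± 0.49 (SE, adjusted p = 0.901). In IR vehicle replicate 2, where the globins were highest, Alas1 was thus below 4 of the other 5 libraries. The 3 smallest p values belonged to Urod (-0.29 ± 0.21), Slc25a38 (0.30 ± 0.27) and Uros (-0.20 ± 0.25), with adjusted p values of 0.852, 0.852 and 0.860.

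Many genes that clear free haemoglobin and haem were lowest in IR vehicle replicate 2. How far this followed the GC shift of that library was not tested. Of 13 genes, all tested, 9 were lowest in that library, against 37.4% of all genes, and 0 were highest. Hpx, encoding the haem carrier haemopexin, was at 15075, 3869 and 10139.9 CPM in IR vehicle, against 13868, 13480.4 and 15789.9 CPM in IR insulin. Hp, encoding haptoglobin, which binds free haemoglobin, was at 11124, 8305 and 5954 CPM in IR vehicle, against 10465, 10715 and 12194 CPM in IR insulin, so that IR vehicle replicate 3 and not replicate 2 was lowest. Between groups, 0 genes were called by adjusted p and 1 passed the study's criteria. This was Slc40a1, the iron exporter ferroportin, with a log2 fold change of -0.74 ± 0.27 (SE, adjusted p = 0.852), and -0.69 ± 0.26 without IR vehicle replicate 2. It did not pass with scaling by library totals (-0.55), with the GC offset (-0.55, or -0.49 with the replicate block added), or without IR vehicle replicate 3 (-0.55) or IR insulin replicate 1 (-0.73) or 2 (-0.63). Slc40a1 was at 88.5, 134 and 158 CPM in IR vehicle, against at 75.9, 64.7 and 87.1 CPM in IR insulin. Lrp1, a receptor for haem bound to haemopexin, was at 0.40 ± 0.23 (adjusted p = 0.852), and Hmox1, which degrades haem, at 0.91 ± 0.59 (adjusted p = 0.852). The list median was 0.29, or 0.07 without that library.

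Markers of the other blood cells did not all rise with the globins. Summed over 11 platelet genes, levels were 16.9 to 26.0 CPM in IR vehicle, against 12.7 to 19.8 CPM in IR insulin, and IR vehicle replicate 2 was at 16.9 CPM, the lowest of its group. Clec1b, which liver macrophages also express, made up 13.3 CPM of that sum. The defining platelet genes Pf4 and Ppbp were at 1.66 and 1.17 CPM there, while elsewhere Pf4 ran from 0.507 to 2.17 CPM and Ppbp from 0.106 to 0.520 CPM. The 8 B cell genes summed to 77.0 CPM in IR vehicle replicate 2 and to 5.49 to 20.6 CPM elsewhere. All 5 tested were highest in IR vehicle replicate 2, beside 35.8% of all genes tested. Yet Cd79a, which defines B cells, had 0 counts in that library, and Ms4a1 (8.35 CPM), Ighm (29.4 CPM) and Igkc (35.4 CPM) made up most of the sum. The 8 T cell genes summed to 1.90 to 3.81 CPM in IR vehicle, against 2.08 to 3.38 CPM in IR insulin, with at most 13 counts of Cd3d and 8 of Cd3e.

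The 11 neutrophil genes ran from 31.95 to 2012 CPM in IR vehicle, against 1408 to 1746 CPM in IR insulin. Most of each sum was Lcn2, which hepatocytes also make. In IR vehicle replicate 2, Lcn2 was at 180 CPM within a sum of 259 CPM. S100a8, a defining neutrophil gene, was at 19.1, 50.3 and 1.43 CPM in IR vehicle, against at 28.5, 13.8 and 13.7 CPM in IR insulin, so IR vehicle replicate 2 was highest, as for the globins. Its partner S100a9 was at 22.6, 20.4 and 1.91 CPM and at 30.8, 14.1 and 12.7 CPM, and was highest in IR insulin replicate 1. The part of blood content in the globin levels was not tested.

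Among the platelet, neutrophil, B cell and T cell lists, 0 of the 16 tested genes had an adjusted p under 0.05. The genes with the smallest p values had log2 fold changes of -0.26 (Clec1b), -0.31 (Pf4) and 0.19 (Itga2b) for platelets, 0.80 (Cxcr2), 0.52 (Csf3r) and 1.05 (Lcn2) for neutrophils, -2.65 (Ms4a1), -1.84 (Ighm) and -1.49 (Igkc) for B cells, and 0.70 (Cd4) and 0.22 (Lck) for T cells, with adjusted p values from 0.852 to 0.934. Ms4a1 alone passed the study's criteria, and its log2 fold change was -0.43 without IR vehicle replicate 2.

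Marker transcripts of resident liver cells also differed between libraries. The 9 Kupffer cell genes summed to 260.0 CPM in IR vehicle replicate 2 and to 373 to 699 CPM in the others, and the 8 sinusoidal endothelial genes to 197 CPM there and 211 to 328 CPM in the others. The Kupffer cell genes did not move together in that library. Marco, C1qa, C1qb, C1qc and Cd5l deviated from the median of the other libraries by -3.15, -2.64, -1.27, -2.56 and -0.51. Adgre1 (1.11), Timd4 (0.77), Vsig4 (0.32) and Clec4f (0.14) were above it. GC content was 51.5 to 59.5% for the genes below that median and 44.4 to 52.1% for those above it. Its part in the split was not tested. Marco was about as low in IR vehicle replicate 3 (9.11 CPM) as in IR vehicle replicate 2 (7.37 CPM). The 7 hepatocyte genes in the table summed to 187800 CPM in IR vehicle replicate 2 and to 70413 to 112959 CPM elsewhere. The defining genes ran from 63.3 to 120.0 CPM (Clec4f, Kupffer cells), from 15.2 to 37.5 CPM (Stab2, endothelium) and from 30.8 to 65.5 CPM (Clec4g, endothelium). Of these 24 genes, 0 had an adjusted p under 0.05. The genes with the smallest p values were Marco (1.51), Timd4 (-0.39) and Vsig4 (-0.53) for Kupffer cells, Kdr (-0.65), Lyve1 (-0.42) and Pecam1 (-0.24) for endothelium, and Serpina1a (-0.75), Alb (-0.89) and Ttr (-0.48) for hepatocytes, each given as its log2 fold change, with adjusted p values from 0.852 to 0.869.

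Genes whose profile over the 6 libraries was most like the summed globins came from outside the erythroid lists. Likeness was the SD of the log2 ratio of a gene's CPM to the summed globin CPM, among 2832 tested genes with at least 0.75 of the globins' log2 range of 2.59. The 10 closest were Gsdme and Cct6b (SD 0.20 each), Gm26616 (0.25), Gm15564 and Zfp780b (0.26 each), Hopx (0.27), Sult2a8 and Glud-ps (0.28 each), Ppp1r16b (0.29) and Selenot (0.30). Their GC content ran from 36.7% (Sult2a8) to 51.7% (Ppp1r16b), and each was highest in IR vehicle replicate 2. For comparison, the SD was 0.51 for Car1 and 0.64 for Alas2. Without that library, only Hopx of these 10 was again among the 10 closest, which then ran from Rpl21 (0.11) to 1110013H19Rik (0.18) among 4961 genes.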

How the data were processed

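The authors deposited whole-number read counts per gene for each of 6 libraries, without scaling or pooling. They used NEBNext Ultra RNA kits, an Illumina HiSeq and Bowtie 2 with mm10, according to the methods (Bowtie2 2.2.3 in the submitters' processing notes). Without spliced alignment, reads across exon junctions can be lost. The counting program, annotation and strand setting are not given in the sources used here.

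Groups came from the sample labels, which name no batch. Counts were fitted with edgeR 4.0.16 (R 4.3.3, quasi-likelihood, TMM, filterByExpr with a minimum count of 10 and total of 15), with Benjamini-Hochberg adjustment over 13377 genes, and the precision was limited by the spread between mice (biological coefficient of variation 0.357). An exact permutation test of 3 against 3 was not used. Alternatives were other scalings, DESeq2 1.42.0 (the authors used an earlier version of DESeq2) and no filter. Further alternatives were a replicate block, a GC offset (13367 genes had a GC value), the globin level as covariate, and leaving out each library. Added after seeing the data were list counts, ratios and likeness without IR vehicle replicate 2.

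Members and lists were chosen with earlier results of these data known. Named are the members, the 3 tested genes of smallest p per list, the first 2 genes of a list as defining markers, and the 10 most like the summed globins. Apex2, Rhag, Adgre1, Cd5l and the C1q genes were named after their values were seen. Some genes that the rule selects are not reported here. Intervals are exact (Clopper-Pearson). Log2 CPM used a prior count of 0.5. Of 54532 identifiers, 54409 matched a GENCODE M21 transcript.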

Additional observations from a re-analysis of the deposited data

How the results depend on the processing

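The log2 fold changes of the globins and Alas2 stayed below 0 under every scaling, the filter, DESeq2, the GC offset, the replicate block and each left-out library. Without IR vehicle replicate 2, however, Hba-a2 (-0.07 ± 0.49 SE) and Alas2 (-0.10 ± 0.29) lay within 1 SE of 0. Hba-a1 was then at -0.57 ± 0.25, Hbb-bs at -0.53 ± 0.29 and Hbb-bt at -0.62 ± 0.28. With the summed globin level as a covariate, which is built from the members, Hba-a2 became 1.41 and Alas2 0.24. Scaling by library totals moved the median of all genes from -0.02 to 0.16. The summed globin ratio ran from 0.309 to 0.691 when single libraries were left out, the highest being without IR vehicle replicate 2.

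At an adjusted p under 0.05, 0 genes were called under every alternative, for all genes and for each list. The 383 genes past the study's criteria became 742 without a filter (more genes tested), 702 with the globin covariate, and 99 to 1349 when 1 library was left out, at 1349 without IR vehicle replicate 1, 888 without replicate 3 of that group, and 99, 143 and 120 without IR insulin replicates 1, 2 and 3. The cause was not tested. The share of calls that were higher was 35.0%, against 73.3% with library totals, 19.2% with the GC offset and 63.2% with the replicate block. Deviations of same-numbered libraries had correlations of -0.039, 0.069 and 0.017, against -0.11 to 0.089 for the other pairs. No pairing by replicate number was seen, although such correlations over all genes cannot exclude one. The replicate block gave 321 genes, 0 of them by adjusted p. Its log2 fold changes were -1.12 for Hba-a1, -1.40 for Hba-a2, -0.94 for Hbb-bs, -1.33 for Hbb-bt and -0.29 for Alas2.

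Of the related genes named, none of them called, several changed sign. With the globin covariate the log2 fold changes were -0.24 (Tspan33), 0.54 (Xk), -0.11 (Epb41), -0.052 (Slc25a38), 0.10 (Uros) and -0.48 (Zfpm1). With the GC offset, alone and with the replicate block, Slc25a38 was at -0.019 in both, Zfpm1 at -0.41 and -0.49, and Lrp1 at -0.16 and -0.079. When single libraries were left out, Xk ran from -0.64 to 0.28 and Epb41 from -0.0038 to 0.29 (Xk highest and Epb41 lowest without IR vehicle replicate 2), Klf1 from -1.02 to 0.58 (highest without IR vehicle replicate 3) and Zfpm1 from -0.13 to 0.72 (lowest without IR insulin replicate 3). Uros was at 0.001 with library totals. Depth limits Slc4a1 and most red cell membrane genes, which had few counts.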
